A study of Mus musculus with 64 samples.

Results

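The comparison described here is that of genotype in mouse liver averaged over both diets, the mean of the HuMgat2 groups on HFD and on chow against the mean of the WT groups on HFD and on chow. It uses 16 libraries of 16, 8 HuMgat2 and 8 WT, chosen by the group in each column's name. HuMgat2 mice are humanized for monoacylglycerol acyltransferase 2 and express human MOGAT2, and WT mice carry the mouse gene Mogat2. Both received a high-fat diet (HFD) or chow for 16 weeks, with 4 libraries in each of the 4 groups HuMgat2 HFD, HuMgat2 chow, WT HFD and WT chow. The labels name no strain, sex, age, cage or litter and do not say how many founder lines the HuMgat2 mice come from. The humanized gene and anything else that separates these mice therefore cannot be told apart. Nothing states how the animals were drawn, and p-values measure the spread between these libraries.

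Monoacylglycerol acyltransferases add a fatty acyl chain to monoacylglycerol and give diacylglycerol, which the DGAT enzymes turn into triglyceride. The MOGAT2 enzyme is best known from the small intestine, where it rebuilds triglyceride from absorbed fat, and human liver also expresses MOGAT2 whereas mouse liver has little Mogat2. A genotype difference that is present on both diets may lie at any distance from the modified gene, so chromosome positions (GRCm39, as in the deposited table) are given beside the genes.

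All 16 libraries showed liver RNA. Albumin (Alb) took 3.26% to 6.02% of the counts in 15 libraries and 0.850% in WT HFD library 4, which also had the smallest total (12422647 counts, against 19353411 to 25812129 in the others). Its Spearman correlations with the rest of WT HFD had a median of 0.954, against 0.978 to 0.990 within groups elsewhere. Its 20 macrophage markers summed to 1593 CPM and its 10 neutrophil markers to 84.4 CPM, against medians of 504 and 4.99 CPM in the WT HFD group. Each of the 16 libraries expressed the Y-linked Ddx3y, at 69.9 to 95.4 CPM in HuMgat2 libraries and 64.4 to 81.9 CPM in WT libraries, and none of the 4 Y-linked genes tested was called with edgeR or DESeq2 (0 at an unadjusted p below 0.05). Levels are CPM after TMM scaling. "Called" means an adjusted p below 0.05 over 17318 genes in edgeR's quasi-likelihood test, and a log2 difference is that of the fit, HuMgat2 over WT, with its standard error (SE).

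Averaged over both diets, 1413 of 17318 genes were called (8.16%), 713 higher in HuMgat2 (4.12%) and 700 lower (4.04%). The median log2 difference over all tested genes was -0.01. Of the called genes 1231 had the same sign on HFD and on chow and 182 had opposite signs. An averaged difference favours genes whose signs are the same on both diets, so this split is in part set by the choice. The difference was mostly larger on HFD: the median absolute log2 difference of the called genes was 0.78 on HFD and 0.31 on chow, and 1182 of the 1413 had the larger difference on HFD. Taken by diet, 2558 genes were called on HFD (14.8%) and 88 on chow (0.508%). A difference between the genotype effects of the diets was called for 844 genes (4.87%), 309 of them among the 1413. These counts moved with single libraries and with the model. Higher genes numbered 422, 441 and 416 without HuMgat2 HFD library 10, HuMgat2 HFD library 11 and WT chow library 5. Without WT HFD library 4, 884 were higher and 816 lower. Lower genes numbered 415, 430, 463, 409 and 378 without HuMgat2 HFD libraries 10 and 11, HuMgat2 chow library 13, WT chow library 5 and WT chow library 6. On HFD alone 1585 were called without HuMgat2 HFD library 10. On chow alone 58 were called without HuMgat2 chow library 13 and 53 without WT chow library 5. Leaving out WT HFD library 4, which enters the chow contrast through the shared dispersion, gave 204. The interaction count was 551, 550 and 529 without HuMgat2 HFD library 10, HuMgat2 chow library 15 and WT chow library 5. A model with 1 genotype effect shared by the diets called 310 higher and 342 lower, 640 of the 652 among the 1413.

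**Figure D1:**
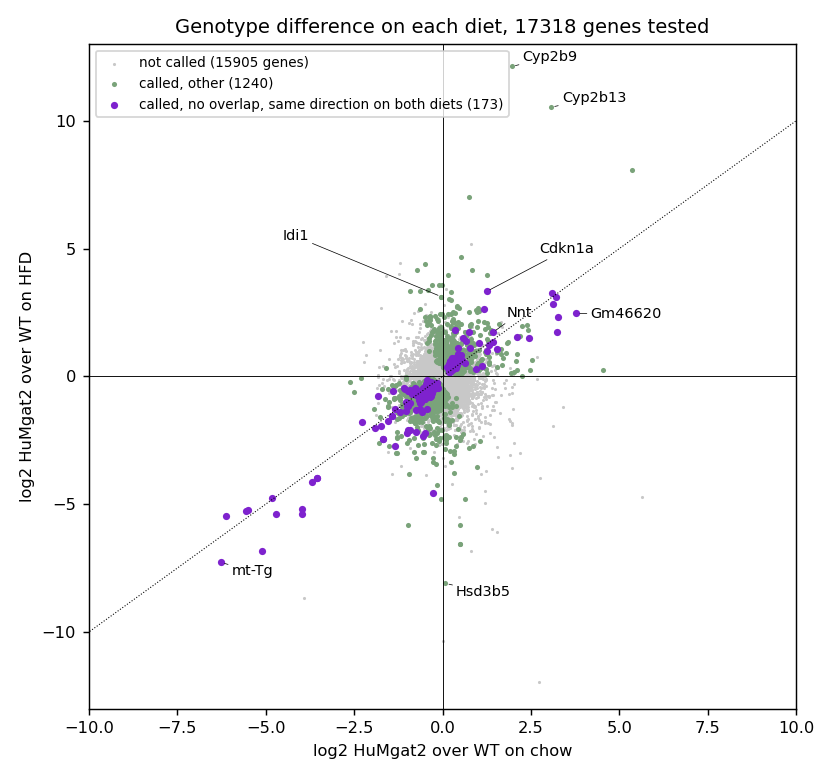
Each point is 1 of 17318 tested genes, with its log2 HuMgat2 over WT on chow (horizontal) and on HFD (vertical); the dotted line marks equal differences. The 173 called genes whose libraries do not overlap on either diet, in 1 direction, have the same sign on both diets by that choice. Some of them lie far from the line, such as Gm3734 (log2 -4.56 on HFD and -0.26 on chow). Most of the other called genes are spread vertically, with a difference on HFD and little on chow.

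A stricter reading of a difference whatever the diet asks that the 4 HuMgat2 libraries lie all above or all below the 4 WT libraries on HFD and, in the same direction, on chow. That held for 182 genes (1.05% of those tested), of which 173 were called, 71 higher and 102 lower. Among the 173 the median absolute log2 difference was 0.68 on HFD and 0.53 on chow, and 7 were also called in the interaction. Asking for separation on both diets itself favours genes with a difference on chow and without a called interaction. These values therefore describe the choice and are no separate result. Predicted genes, with names that begin with Gm and a number or end in Rik, made up 54 of the 173 (31.2%). They were 25.8% of the called genes and 22.3% of all tested genes. Some of the 54 lie in short stretches of chromosomes 14 and 4, described below, where counts of copies are not independent. A called difference on each diet taken alone was found for 39 genes, 13 higher and 26 lower, all among the 173, and 33 of them differed at least 2-fold. Without HuMgat2 chow library 15 the count of 173 became 305, and without WT chow library 8 it became 330; fewer libraries have to be cleared in such fits.

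Among genes that were higher in HuMgat2 on both diets, nicotinamide nucleotide transhydrogenase (Nnt, under 2 merged Ensembl identifiers, chromosome 13, 119471984 to 119545533) makes mitochondrial NADPH. Its lowest, median and highest levels were 83.8, 127 and 141 CPM in HuMgat2 libraries, against 29.3, 41.2 and 47.3 CPM in WT libraries. Every HuMgat2 library lay above every WT library, on both diets. The difference was 2.97-fold (log2 1.57 ± 0.10 SE, adjusted p = 7.94e-08), with log2 1.72 on HFD and 1.42 on chow. Wdfy1 (chromosome 1, 79679979 to 79739486), an adaptor of endosomal Toll-like receptors, had 38.9, 42.3 and 47.3 CPM in HuMgat2 libraries, against 14.4, 18.4 and 24.6 CPM in WT libraries. Those ranges did not overlap either, and the difference was 2.23-fold (log2 1.16 ± 0.08 SE, adjusted p = 2.41e-07). Thymidine phosphorylase (Tymp, chromosome 15, 89256134 to 89261242) averaged 52.9 ± 11.7 CPM in HuMgat2 and 19.9 ± 6.06 CPM in WT (SD, n = 8 each; log2 1.40 ± 0.20 SE, adjusted p = 0.000596).

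Several of the largest increases were in predicted genes without an assigned function. Gm46620 (chromosome 18, 82712412 to 82719461) had 18.1, 23.4 and 36 CPM in HuMgat2 libraries, against 2.03, 2.55 and 4.29 CPM in WT libraries, a difference of 8.72-fold (log2 3.12 ± 0.12 SE, adjusted p = 2.52e-11). It was called on each diet, and the log2 difference was larger on chow (3.78) than on HFD (2.46; interaction adjusted p = 0.00298). Gm49980 (chromosome 18, 30400302 to 30405186) had 19.5, 31.2 and 35.1 CPM in HuMgat2 libraries, against 0.851, 2.22 and 9.04 CPM in WT libraries, and its difference was nearly the same on both diets (log2 3.25 on HFD and 3.10 on chow). Gm42427 (chromosome 5, 44295322 to 44300613) averaged 4.56 ± 0.86 CPM in HuMgat2 and 0.582 ± 0.158 CPM in WT (SD, n = 8 each; adjusted p = 2.67e-08). The increases of Gm46223 (chromosome 10, 50298230 to 50298904; log2 2.79), Gm4316 (chromosome 8, 123891994 to 123905504; log2 2.49) and Gm37416 (chromosome 2, 16027919 to 16028236; log2 1.82) were called on each diet as well. In all 6 of these genes the 8 HuMgat2 libraries lay above the 8 WT libraries.

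Protein-coding genes among the 12 largest such increases included Bnc2, Cdkn1a, Mmp12 and Cdh18. Basonuclin 2 (Bnc2, chromosome 4, 84193332 to 84593512), a zinc finger protein of fibroblasts and epithelia, was low, at 0.517, 1.18 and 3.06 CPM in HuMgat2 libraries, against 0, 0.137 and 0.44 CPM in WT libraries (log2 3.16 ± 0.38 SE, adjusted p = 9.12e-05). Cdkn1a (chromosome 17, 29309950 to 29319701), which encodes the cell cycle inhibitor p21, averaged on HFD 14.3 ± 1.54 CPM in HuMgat2 and 1.56 ± 1.43 CPM in WT, and on chow 2.59 ± 0.558 CPM in HuMgat2 and 1.1 ± 0.223 CPM in WT (SD, n = 4 each). Its averaged difference was log2 2.29 ± 0.27 SE, adjusted p = 9.04e-05. The interaction was called (adjusted p = 0.0385), and on chow alone the difference was not called (log2 1.25, adjusted p = 0.223), although the 4 libraries of each genotype did not overlap there. The macrophage elastase Mmp12 (chromosome 9, 7344397 to 7369499) had 0.14, 1.96 and 4.88 CPM in HuMgat2 libraries, against 0.0463, 0.391 and 3.26 CPM in WT libraries; these ranges overlap across the diets and not within them (log2 1.97 ± 0.40 SE, adjusted p = 0.00735). Cadherin 18 (Cdh18, chromosome 15, 23036541 to 23474504) averaged 4.2 ± 3.07 CPM in HuMgat2 and 0.847 ± 0.495 CPM in WT (SD over both diets, n = 8 each). Averaged over the diets, the Cdh18 difference was log2 1.91 ± 0.25 SE (adjusted p = 0.000217). Mmp12 and Cdh18 were not called on chow alone either. Mmp12 had log2 1.49 on HFD and 2.45 on chow (chow adjusted p = 0.176). Cdh18 had log2 2.64 on HFD and 1.18 on chow (chow adjusted p = 0.223).

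The 12 largest decreases without overlap were almost all in predicted genes, and they lay close together. Of the genes that were called without overlap on both diets, 10 started between 69 and 70 Mb of chromosome 14, in a span of 424 kb (69496595 to 69920735). A further 6 started between 42 and 43 Mb of chromosome 4, in a span of 255 kb (42206998 to 42461867). All 16 were lower in HuMgat2, with log2 differences of -0.78 to -5.42 on chromosome 14 and -2.03 to -5.97 on chromosome 4. In those spans 16 and 8 genes were tested, 12 and 6 were called lower and 0 were called higher. Genes of these stretches are in part near-identical copies of each other or overlap, and their counts are not independent. Gm38378 and Gm37513 had equal counts in all 16 libraries, Gm20236 and Gm37094 in 15 of 16, and Gm16867 and Gm27177 in 8 of 16.

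Within the chromosome 14 span, Gm16867 (chromosome 14, 69600953 to 69740811) had 0.0885, 0.209 and 0.359 CPM in HuMgat2 libraries, against 7.22, 9.61 and 11.2 CPM in WT libraries, so that every WT library stood far above every HuMgat2 library (log2 -5.42 ± 0.19 SE, adjusted p = 2.19e-11). Its copy Gm27177 (chromosome 14, 69819613 to 69920735) had 0.0885, 0.209 and 0.359 CPM in HuMgat2 libraries, against 6.89, 8.97 and 10.8 CPM in WT libraries. For Gm38378 (chromosome 14, 69632953 to 69635220) and Gm37513 (chromosome 14, 69851228 to 69853495) the single value is 0.115 ± 0.0749 CPM in HuMgat2 and 1.66 ± 0.489 CPM in WT (SD, n = 8 each; log2 -3.76 ± 0.31 SE, adjusted p = 9.07e-07). On chromosome 4, Gm17167 (chromosome 4, 42206998 to 42235313) had 0.085, 0.169 and 0.244 CPM in HuMgat2 libraries, against 4.31, 4.99 and 11.8 CPM in WT libraries (log2 -5.06 ± 0.24 SE, adjusted p = 8.48e-10). Gm13301 (chromosome 4, 42216908 to 42236330), which overlaps it, averaged 0.223 ± 0.126 CPM in HuMgat2 and 5.45 ± 1.51 CPM in WT (SD, n = 8 each). Its neighbours were nearly absent in HuMgat2. Gm10599 (chromosome 4, 42242630 to 42244913) summed to 3 counts over 8 HuMgat2 libraries and 239 over 8 WT libraries, 82.2-fold lower per total count (95% interval 27.8 to 401, counting error only). Gm17081 (chromosome 4, 42239725 to 42242073; adjusted p = 3.03e-08) summed to 5 counts in HuMgat2 and 275 in WT. Gm5859 (chromosome 4, 42236859 to 42239182; adjusted p = 4.69e-07) summed to 7 counts in HuMgat2 and 203 in WT. Gm13302, just before the span (chromosome 4, 41893388 to 41895236; adjusted p = 2.86e-05), summed to 7 counts in HuMgat2 and 196 in WT. In all 4 the lowest count of a WT library was above the highest of a HuMgat2 library.

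A further decrease lay in the mitochondrial genome. The glycine transfer RNA mt-Tg (chromosome MT, 9391 to 9458 on the plus strand) summed to 3 counts in HuMgat2, with 0 in 6 of 8 libraries, and to 418 in WT, with none of 8 at 0. That is 144-fold lower per total count (95% interval 48.8 to 700, counting error only; adjusted p = 9.47e-08). The arginine transfer RNA mt-Tr was also lower (log2 -1.04 ± 0.19 SE, adjusted p = 0.0044), and these were the only 2 of 32 mitochondrial genes called. None of the 13 protein-coding genes of that genome was called with edgeR or with DESeq2, 0 had an unadjusted p below 0.05, and their median log2 difference was 0.19. Both transfer RNA genes are 68 bases long in the GENCODE vM21 transcripts (GRCm38), printed here as the only called genes of that genome. The capitals in mt-Tr mark its longest run of A, 8 bases from position 14, a run whose length is known to vary between inbred mouse strains.
mt-Tg: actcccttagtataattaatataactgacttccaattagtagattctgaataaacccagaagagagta
mt-Tr: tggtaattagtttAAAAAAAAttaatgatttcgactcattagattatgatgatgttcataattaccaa

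On chromosome 1, Ifi208 (chromosome 1, 173501241 to 173525961), of the interferon-inducible family that holds DNA sensors, had 0, 0.098 and 0.255 CPM in HuMgat2 libraries, against 1.06, 1.75 and 3.18 CPM in WT libraries (log2 -3.91 ± 0.39 SE, adjusted p = 1.11e-05). It was the single gene with an assigned name among the nuclear genes of these 12 decreases, and its ranges did not overlap. Smaller decreases without overlap included Entpd4 and Entpd4b, which encode nucleotide-hydrolysing enzymes of the secretory pathway and lie inside the chromosome 14 span. Entpd4 (chromosome 14, 69574623 to 69604719) had 15.8, 17.3 and 18.6 CPM in HuMgat2 libraries, against 26.5, 28.6 and 34.4 CPM in WT libraries (log2 -0.78 ± 0.06 SE, adjusted p = 2.8e-07). Entpd4b (chromosome 14, 69792873 to 69822969), a copy of it, had 16.2, 18 and 19.4 CPM in HuMgat2 libraries, against 28, 30.1 and 36 CPM in WT libraries (log2 -0.79 ± 0.06 SE, adjusted p = 3.08e-07). All HuMgat2 values lay below all WT values in both.

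**Figure D2:**
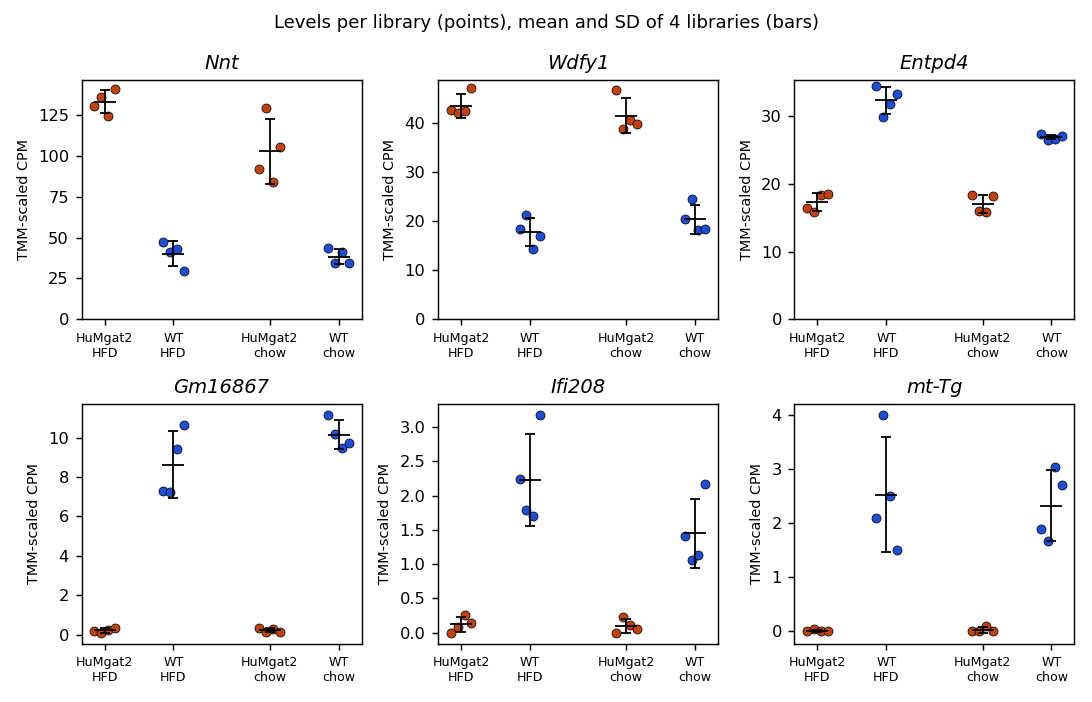
TMM-scaled CPM of 6 genes in each library (points; HuMgat2 orange, WT blue), with the mean and SD of each group of 4 (bars), on HFD to the left and chow to the right of each panel. Nnt and Wdfy1 are higher and Entpd4, Gm16867, Ifi208 and mt-Tg lower in every HuMgat2 library on both diets.

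Nnt, Wdfy1, Entpd4 and Entpd4b are among genes known to differ between C57BL/6 substrains. Nnt is the best known of them, with a deletion of several exons in C57BL/6J mice that C57BL/6N mice lack. In a list of 11 such genes 9 were tested and 5 were called, 2 higher (Nnt and Wdfy1) and 3 lower (Entpd4, Entpd4b and Nlrp12), all 5 without overlap on both diets. Over all genes tested 8.16% were called and 0.999% were called without overlap on both diets. The list was written with results of these data known and its count is a description. As the labels name no strain, substrain and genotype cannot be told apart here.

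Called genes were spread over the whole genome. The share called ranged from 6.77% on chromosome 9 to 9.59% on chromosome 3 among chromosomes with at least 100 tested genes. The genes without overlap on both diets were less even. Chromosome 14 held 19 of them among 605 tested genes (3.14%), 10 of the 19 in the span described above, and the others with at least 100 tested genes had 0.205% (X) to 1.55% (18). Of 32 mitochondrial genes tested 2 were called without overlap. Other bins of 1 Mb with more than 2 such genes were 25 to 26 Mb of chromosome 14 (Plac9a, Tmem254a and Cphx1, all lower) and 30 to 31 Mb of chromosome 17 (Zfand3, Gm50226 and Gm50250); these 6 were named after their values were seen.

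**Figure D3:**
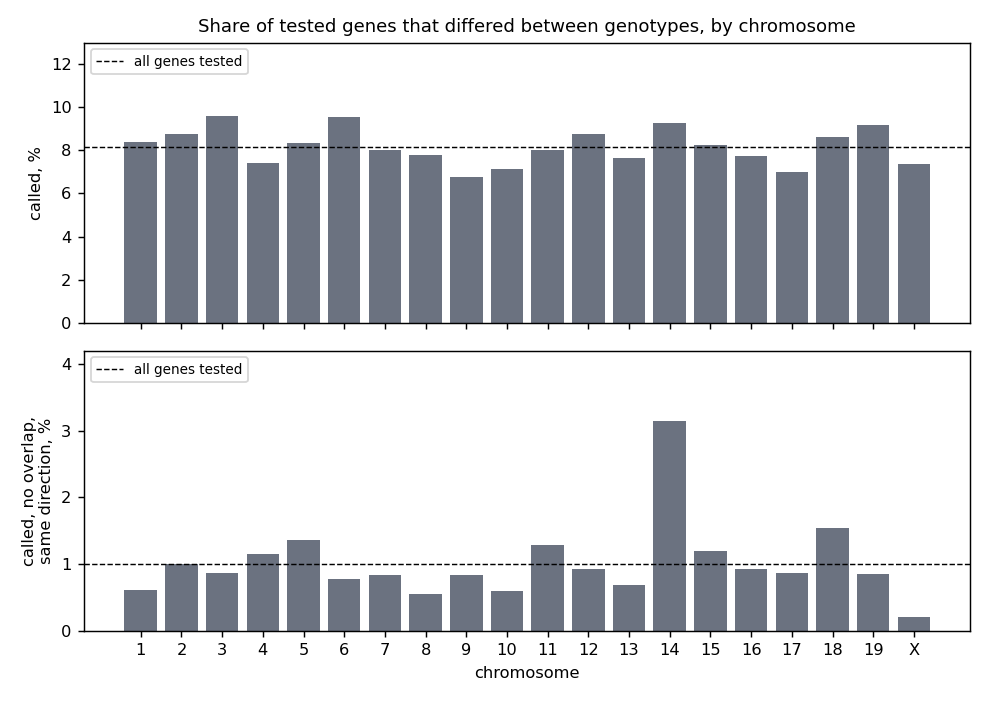
Share of tested genes called in the averaged comparison (top) and share called without overlap in 1 direction on both diets (bottom), by chromosome; dashed lines give the shares over all genes tested, 8.16% and 0.999%. The upper bars differ little, and in the lower panel chromosome 14 stands highest at 3.14%. Chromosomes with under 100 tested genes are not drawn.

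The modified gene itself was barely detected in liver. Mogat2 (ENSMUSG00000052396, chromosome 7, 98868291 to 98887826, minus strand) summed to 6 counts over the 8 HuMgat2 libraries, 0 to 2 per library, and to 25 over the 8 WT libraries, 0 to 12 per library. In WT, 17 of the 25 counts came from HFD libraries 3 and 4. An exact permutation test within diets gave a difference of -0.25 in mean log2(CPM + 0.5) (two-sided p = 0.0473), which became 0.0192 to 0.137 with 1 library left out and missed 0.05 in 10 of those 16 fits. The deposited annotation holds mouse genes, so the level of human MOGAT2 was not measured.

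Of the genes near Mogat2, 18 of 183 tested within 10 Mb were called (9.84%, against 8.16% of all genes), 8 higher and 10 lower. Within 1 Mb 4 of 31 were called, and within 20 Mb 32 of 343. Taken by diet, 29 of the 183 were called on HFD and 0 on chow, against 14.8% and 0.508% of all genes. The count of 18 was 9, 11, 10, 11 and 9 without HuMgat2 HFD library 10, HuMgat2 chow libraries 14 and 16, WT HFD library 2 and WT chow library 6, and 7 in the model with a shared genotype effect. Nearest was Dgat2 (chromosome 7, 98802865 to 98831926), 36.4 kb away, which encodes the enzyme for the last step of triglyceride synthesis. Dgat2 had 160.4, 183 and 238 CPM in HuMgat2 libraries, against 227, 265 and 309.6 CPM in WT libraries, and the ranges overlap narrowly. Its difference was 1.42-fold lower (log2 -0.50 ± 0.09 SE, adjusted p = 0.00366), with log2 -0.63 on HFD and -0.38 on chow. On chow alone Dgat2 was not called (adjusted p = 0.258). The autophagy-related Atg16l2 (chromosome 7, 100934528 to 100951458), 2047 kb away, averaged 7.13 ± 1.74 CPM in HuMgat2 and 13.5 ± 2.85 CPM in WT (SD, n = 8 each; log2 -0.95 ± 0.13 SE, adjusted p = 0.000253) and did not overlap on either diet. Ddias (chromosome 7, 92506733 to 92523455), which encodes a DNA damage-induced apoptosis suppressor, averaged 1.91 ± 1.03 CPM in HuMgat2 and 0.858 ± 0.305 CPM in WT (log2 1.01 ± 0.15 SE, adjusted p = 0.00066). The mitochondrial disaggregase gene Clpb (chromosome 7, 101312840 to 101444713) averaged 30.0 ± 2.27 CPM in HuMgat2 and 24 ± 3.17 CPM in WT (log2 0.32 ± 0.08 SE, adjusted p = 0.017). Neither overlapped between genotypes on either diet. Ric3 (chromosome 7, 108633519 to 108682538), a chaperone of acetylcholine receptors, had a difference of log2 1.60 (adjusted p = 0.0013). That of the ribonucleotide reductase subunit Rrm1 (chromosome 7, 102090902 to 102118978) was 0.43 (adjusted p = 0.00735), and that of the serine protease Prss23 (chromosome 7, 89156991 to 89176395) was 0.78 (adjusted p = 0.0131). The interferon-inducible pseudogenes Gvin-ps2 (chromosome 7, 105574207 to 105577799) and Gvin-ps4 (chromosome 7, 105785611 to 105789206) had differences of log2 -1.28 and -1.24. Without WT HFD library 4 these were log2 -0.97 and -0.93, and both pseudogenes were still called. Theirs was a difference of HFD (log2 -2.43 and -2.43) rather than chow (-0.14 and -0.06; interaction adjusted p = 0.024 and adjusted p = 0.0245).

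**Figure D4:**
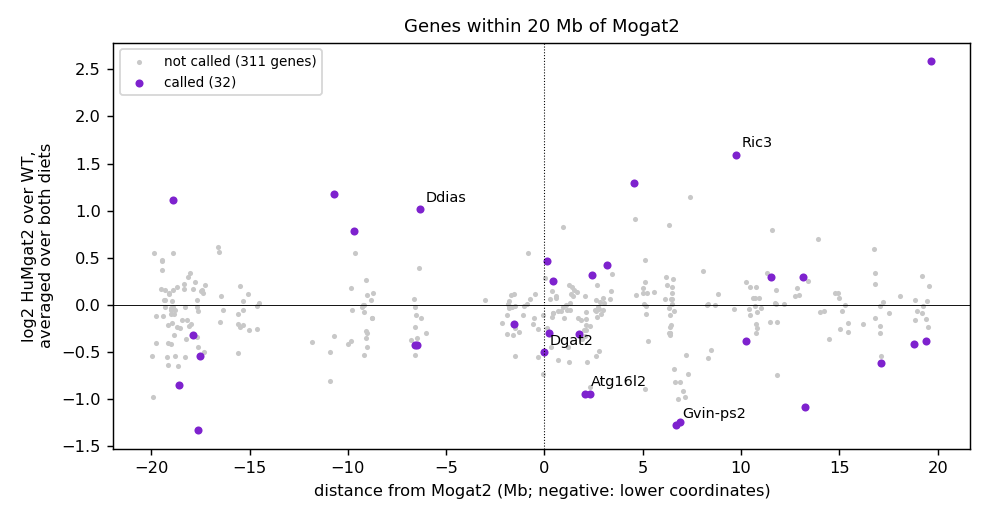
Log2 HuMgat2 over WT averaged over both diets (vertical) against distance from Mogat2 in Mb (horizontal) for the 343 genes tested within 20 Mb; purple points are the 32 called. Called genes lie on both sides and at all distances, and Dgat2, the nearest gene named, is lower in HuMgat2.

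In the same enzyme family, Mogat1 (chromosome 1, 78487806 to 78514810) had 0.0759, 1.88 and 5.23 CPM in HuMgat2 libraries, against 0, 0.343 and 1.09 CPM in WT libraries. The highest WT library lay below the 4 HuMgat2 HFD libraries, and HuMgat2 and WT overlapped on chow. Mogat1 was called at log2 1.56 ± 0.46 SE, adjusted p = 0.047, but the call ended in 11 of 16 fits with 1 library left out (adjusted p up to 0.143). Dgat1, the other triglyceride-forming enzyme, had 9.3 ± 1.39 CPM in HuMgat2 and 9.39 ± 1.64 CPM in WT (SD, n = 8 each; adjusted p = 0.959) and was not called, and Dgat2l6 had 0 counts in all 16 libraries. Of 12 tested acyltransferase genes, Mogat1 was the 1 called higher and Dgat2 the 1 called lower.

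Gene lists of liver metabolism are given by their counts, beside 4.12% higher and 4.04% lower over all genes. Genes of cholesterol synthesis, the targets of the transcription factor SREBP2, had the largest share of members called, with 18 of 25 higher and 0 lower (15 to 20 with 1 library left out) and a median log2 difference of 0.74. The difference lay on HFD, where 20 members were higher, against 0 on chow. The median was 1.29 on HFD and 0.05 on chow, and 14 of the 18 were called in the interaction. In the model with a shared genotype effect 5 were higher. Hmgcs1 (chromosome 13, 120151982 to 120169796), the synthase that makes HMG-CoA, averaged on HFD 629 ± 274 CPM in HuMgat2 and 76.4 ± 23.4 CPM in WT, and on chow 324 ± 91.7 CPM in HuMgat2 and 287 ± 39.7 CPM in WT (SD, n = 4 each; averaged log2 1.61 ± 0.21 SE, adjusted p = 0.000248; interaction adjusted p = 0.00093). Idi1 (chromosome 13, 8935537 to 8942487), of the isoprenoid steps, averaged on HFD 206 ± 126 CPM in HuMgat2 and 23.7 ± 3.99 CPM in WT, and on chow 175 ± 49.8 CPM in HuMgat2 and 178 ± 33.9 CPM in WT (SD, n = 4 each). Hsd17b7 (log2 1.71 on HFD and 0.31 on chow) and Nsdhl (log2 2.34 on HFD and 0.03 on chow), enzymes of the later sterol steps, had the same pattern, with interaction adjusted p = 0.0155 and adjusted p = 0.00329.

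**Figure D5:**
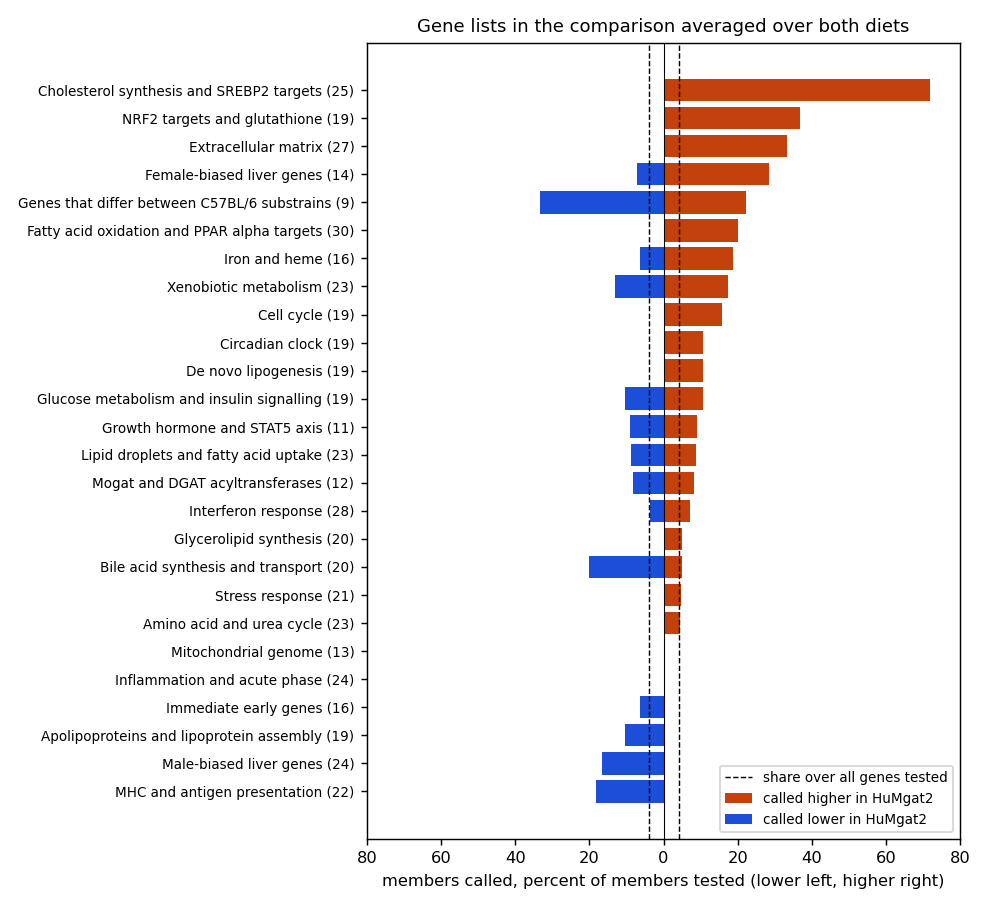
Members called higher (orange, right) and lower (blue, left) in HuMgat2, as a percent of the members tested (number in brackets), for 26 gene lists; dashed lines give the shares over all genes tested, 4.12% and 4.04%. Cholesterol synthesis reaches 72.0% higher and 0 lower, and the list of genes that differ between substrains has members on both sides.

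Lipid genes outside that pathway had fewer calls. Of 30 genes of fatty acid oxidation and PPAR alpha 6 were higher and 0 lower; the count was 2 or 3 in 14 of the 16 fits with 1 library left out and 9 without WT HFD library 4. It was 2 with a filter at a mean of 1 CPM and 0 in the model with a shared genotype effect. Pdk4 (chromosome 6, 5483351 to 5496309), which holds back pyruvate oxidation, averaged on HFD 16.2 ± 0.646 CPM in HuMgat2 and 3.14 ± 0.609 CPM in WT, and on chow 7.2 ± 1.8 CPM in HuMgat2 and 8.35 ± 3.35 CPM in WT (SD, n = 4 each; averaged log2 1.07 ± 0.18 SE, adjusted p = 0.00189). The beta-oxidation enzyme Hadh had log2 0.80 on HFD and 0.05 on chow (interaction adjusted p = 0.0143). Of 23 lipid droplet and uptake genes 2 were higher and 2 lower (1 and 1 in the model with a shared genotype effect). The fatty acid transporter Cd36 (chromosome 5, 17986688 to 18093745) averaged 151 ± 115 CPM in HuMgat2 and 69.9 ± 24.4 CPM in WT (SD, n = 8 each; log2 0.66 ± 0.15 SE, adjusted p = 0.0119), with log2 1.63 on HFD and -0.32 on chow. The fatty acid binding protein Fabp5 (chromosome 3, 10077608 to 10081667) was lower, at 2.81 ± 0.551 CPM in HuMgat2 and 13.5 ± 13.2 CPM in WT (SD, n = 8 each; log2 -2.12 ± 0.39 SE, adjusted p = 0.00432), and WT HFD library 4 held its highest value of 43.9 CPM. Without that library the Fabp5 difference was log2 -1.71 (adjusted p = 0.00198). Lipoprotein lipase (Lpl) was lower (log2 -0.59, adjusted p = 0.0223), and the droplet coat protein Plin2 was higher (log2 0.55, adjusted p = 0.0258; not called in 3 of 16 fits with 1 library left out). Adipocyte marker levels also differed between HFD libraries, and their part in these decreases was not tested. Summed over 5 markers, the lowest, median and highest level was 3.05, 5.58 and 7.02 CPM in HuMgat2 HFD and 0.238, 81.2 and 130 CPM in WT HFD libraries, the lowest WT HFD value being that of library 4. On chow the medians were 0.137 CPM in HuMgat2 and 0.29 CPM in WT libraries. The sums were nearly all Cfd, which encodes the complement protease adipsin and was not called (adjusted p = 0.183). The 4 other markers, adiponectin (Adipoq), leptin (Lep), Retn and Plin1, were at or below 0.0976 CPM in all 16 libraries. De novo lipogenesis had 2 of 19 higher and 0 lower, among them ATP citrate lyase (Acly, log2 0.90, adjusted p = 0.017), with 4 higher without WT HFD library 4, 1 without each of 6 others and 0 in the model with a shared genotype effect.

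Bile acid and sterol export genes had 1 of 20 higher and 4 lower (0 to 2 higher and 4 or 5 lower with 1 library left out). The model with a shared genotype effect called 0 of them in either direction. Those lower were Cyp2c70, which makes the muricholic acids of mice, the bile acid and steroid uptake carrier Slco1a1, the oxysterol enzyme Cyp27a1 and the sterol exporter subunit Abcg5. Cyp2c70 (chromosome 19, 40141797 to 40175777) averaged on HFD 75.7 ± 17.1 CPM in HuMgat2 and 391 ± 127 CPM in WT, and on chow 244 ± 47.4 CPM in HuMgat2 and 171 ± 27.5 CPM in WT (SD, n = 4 each), so that the order of the genotypes turned round between the diets (interaction adjusted p = 8.35e-05). The interaction was called for all 4 (Slco1a1 adjusted p = 0.0153, Cyp27a1 adjusted p = 0.0243 and Abcg5 adjusted p = 0.00126). The HDL receptor Scarb1 (chromosome 5, 125354151 to 125418158) was lower (log2 -0.64, adjusted p = 0.000539), and 2 of 19 lipoprotein genes were lower and 0 higher. With 1 library left out 1 to 3 were lower, and without WT HFD library 4 also 2 were higher.

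Among xenobiotic and sex-biased genes some were present in HuMgat2 on HFD and close to 0 in WT. Of 23 xenobiotic genes 4 were higher and 3 lower (5 lower without WT HFD library 4), and of 14 female-biased genes 4 were higher and 1 lower (4 lower without WT HFD library 4, 0 lower without HuMgat2 HFD library 10 or WT HFD library 2). With a shared genotype effect these counts were 1 higher and 0 lower for xenobiotic genes, and 3 higher and 0 lower for female-biased ones. Cyp2b9 (chromosome 7, 25872836 to 25910086), a cytochrome P450 higher in female than in male mouse liver, had 6.19, 225 and 567 CPM in HuMgat2 libraries, against 0, 0.161 and 22.4 CPM in WT libraries (adjusted p = 8.25e-05). On HFD it averaged 461 ± 83.4 CPM in HuMgat2 and 0.0928 ± 0.105 CPM in WT (SD, n = 4 each), and on chow the genotypes overlapped. Cyp2b13 (chromosome 7, 25760922 to 25795622), its neighbour on chromosome 7, had 0.304, 13.4 and 73.1 CPM in HuMgat2 libraries, against 0, 0 and 0.907 CPM in WT libraries (adjusted p = 9.94e-05). With 5 of 8 WT libraries at 0 counts for Cyp2b13, its fitted log2 difference depends on the prior count and is not given. Both promoters are shown because this pair is nearly identical there. Reads of the 2 genes may not be fully told apart either, but their transcripts were not compared and this was not tested. The windows run from 250 bases before to 50 after each start (RefSeq, GRCm38.p6, plus strand), at chr7:26173159-26173458 for Cyp2b9 and chr7:26061245-26061544 for Cyp2b13, and 298 of 300 bases are equal. Capitals mark the bases that differ, T48C and C104T from Cyp2b9 to Cyp2b13, counted from the 5′ end of the window.
Cyp2b9: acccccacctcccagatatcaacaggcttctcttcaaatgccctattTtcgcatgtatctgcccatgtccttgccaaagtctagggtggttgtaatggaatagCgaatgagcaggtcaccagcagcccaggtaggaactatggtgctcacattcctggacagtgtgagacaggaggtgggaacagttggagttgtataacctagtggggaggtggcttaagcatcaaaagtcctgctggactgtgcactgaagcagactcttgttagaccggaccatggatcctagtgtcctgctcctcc
Cyp2b13: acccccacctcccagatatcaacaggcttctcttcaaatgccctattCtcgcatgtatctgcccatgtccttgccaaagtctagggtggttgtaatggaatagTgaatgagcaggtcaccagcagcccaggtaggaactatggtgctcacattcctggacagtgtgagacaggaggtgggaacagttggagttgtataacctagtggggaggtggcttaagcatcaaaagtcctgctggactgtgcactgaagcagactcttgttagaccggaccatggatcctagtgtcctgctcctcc

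The other female-biased genes higher in HuMgat2 were Hao2, a hydroxyacid oxidase, at 0.14, 2.13 and 9.64 CPM in HuMgat2 libraries, against 0, 0.0894 and 0.544 CPM in WT libraries (adjusted p = 0.000159), and the steroid hydroxylase Cyp17a1 at 5.15, 18.4 and 33.8 CPM in HuMgat2 libraries, against 2.46, 5.89 and 10.8 CPM in WT libraries (log2 1.66 ± 0.31 SE, adjusted p = 0.005). Of 24 male-biased genes 4 were lower and 0 higher, with 9 lower without WT HFD library 4 and 0 in the model with a shared genotype effect. The steroid dehydrogenase Hsd3b5 (chromosome 3, 98525950 to 98537568) averaged on HFD 0.344 ± 0.153 CPM in HuMgat2 and 95.4 ± 61.5 CPM in WT, and on chow 144 ± 64.6 CPM in HuMgat2 and 136 ± 25 CPM in WT (SD, n = 4 each; interaction adjusted p = 0.000217). Complement component C6 had log2 -2.36 on HFD and 0.06 on chow. The averaged call of these genes came from HFD: 12 male-biased genes were lower on HFD and 0 on chow. Among the P450 genes, Cyp2c38 was higher (log2 2.15 on HFD and -0.48 on chow) and Cyp1a2, an inducible P450 of xenobiotic metabolism, was lower (log2 -2.37 on HFD and 0.17 on chow), with interaction adjusted p = 6.2e-05 and adjusted p = 0.000934.

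Targets of the antioxidant factor NRF2 and glutathione genes had 7 of 19 higher and 0 lower (5 to 8 higher and 0 to 2 lower with 1 library left out), with a median of 0.39. The calls by diet lay on HFD, with 10 higher and 2 lower, against 0 on chow. The median was 0.73 on HFD and -0.07 on chow. Of the 7 called on average, 5 were called in the interaction, Nfe2l2 among them. Nfe2l2 itself, which encodes NRF2, averaged 73.7 ± 14.6 CPM in HuMgat2 and 55.7 ± 6.02 CPM in WT (SD, n = 8 each; log2 0.39 ± 0.08 SE, adjusted p = 0.00791). Sulfiredoxin (Srxn1, chromosome 2, 151947436 to 151953296) averaged on HFD 51.8 ± 11.1 CPM in HuMgat2 and 22.6 ± 2.68 CPM in WT, and on chow 24.3 ± 4.42 CPM in HuMgat2 and 24.3 ± 2.72 CPM in WT (SD, n = 4 each; averaged log2 0.60 ± 0.11 SE, adjusted p = 0.00412). Glutathione synthesis begins with the enzyme that Gclc encodes a subunit of, and this gene had log2 1.49 on HFD and -0.37 on chow (interaction adjusted p = 0.000406). The glutathione transferase Gstm2 had 0.60 on HFD and 0.73 on chow, with interaction adjusted p = 0.853. In the model with a shared genotype effect 1 member was higher.

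Matrix, cell cycle and iron genes called in the averaged comparison had the same sign on both diets, as did 87.1% of all called genes. Taken by diet, nearly all calls lay on HFD. Matrix genes had 9 higher on HFD, against 0 higher and 1 lower on chow. Cell cycle genes had 3 higher on HFD and iron genes 3 higher and 1 lower, with 0 called on chow in both lists. Of 27 extracellular matrix genes 9 were higher and 0 lower, with a median of 0.40 (0.50 on HFD and 0.25 on chow), and 5 were higher in the model with a shared genotype effect. The count was 4 without HuMgat2 HFD library 10, 5 without HuMgat2 HFD library 12 and 14 without WT HFD library 4. Besides Mmp12, the collagen genes Col6a2 (chromosome 10, 76431596 to 76459464; 7.74 ± 3.42 CPM in HuMgat2 and 4.74 ± 1.41 CPM in WT; log2 0.63 ± 0.13 SE, adjusted p = 0.00756) and Col4a1 (chromosome 8, 11248423 to 11362826; 52.8 ± 16.8 CPM in HuMgat2 and 38.2 ± 13.5 CPM in WT; log2 0.46 ± 0.11 SE, adjusted p = 0.0175) were among them. Summed levels of 14 stellate cell markers had medians of 587 CPM in HuMgat2 HFD, 372 in HuMgat2 chow, 420 in WT HFD and 409 in WT chow libraries; 2 of the 14 were called higher and 1 lower. Higher were Acta2, the smooth muscle actin of activated stellate cells (2.96 ± 0.701 CPM in HuMgat2 and 1.19 ± 0.692 CPM in WT; log2 1.36 ± 0.25 SE, adjusted p = 0.00457), and the growth factor receptor Pdgfrb (log2 0.42; not called in 11 of 16 fits with 1 library left out). Lower was the hedgehog-binding protein gene Hhip (log2 -0.48). The part of stellate cell number in the matrix counts was not tested, and in bulk liver a change in cells of a type and in RNA per cell cannot be told apart. Of 19 cell cycle genes 3 were higher and 0 lower (6 higher without WT HFD library 4). They were the replication helicase subunits Mcm2 (log2 0.83, adjusted p = 0.00979) and Mcm5 (1.05, adjusted p = 0.0181) and the mitotic activator Cdc20 (1.07, adjusted p = 0.0292; not called in 6 of 16 fits with 1 library left out). Of 16 iron and heme genes 3 were higher and 1 lower (0 or 1 lower with 1 library left out). The transferrin receptor Tfrc (chromosome 16, 32427738 to 32451612) had 28.1, 33.8 and 52.1 CPM in HuMgat2 libraries, against 16.8, 20.4 and 34.4 CPM in WT libraries (log2 0.76 ± 0.13 SE, adjusted p = 0.00189), and the ferritin heavy chain Fth1 had log2 0.40 (adjusted p = 0.0136).

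Genes of antigen presentation were called by edgeR in 1 direction, lower. DESeq2 and limma voom with quality weights each called 1 higher as well. Taken by diet, edgeR called 6 lower on HFD and 0 on chow. Of 22 MHC and antigen presentation genes 4 were lower and 0 higher (8 lower without WT HFD library 3, and 7 with no filter on low counts), with a median of -0.42 and the same sign on both diets in all 4. Among them were the class I genes H2-Q7 (chromosome 17, 35658131 to 35662749; 46.1 ± 9 CPM in HuMgat2 and 78.3 ± 29.5 CPM in WT; log2 -0.74 ± 0.14 SE, adjusted p = 0.00483) and H2-Q6 (chromosome 17, 35643826 to 35649031; 16.7 ± 2.41 CPM in HuMgat2 and 25.6 ± 10.3 CPM in WT; log2 -0.57 ± 0.11 SE, adjusted p = 0.00681). The others were the transcriptional activators of class I and class II genes, Nlrc5 (log2 -0.77 ± 0.18 SE, adjusted p = 0.0158) and Ciita (log2 -1.43 ± 0.42 SE, adjusted p = 0.0456; not called in 12 of 16 fits with 1 library left out). Copies of the class I genes are alike and may share reads. WT HFD library 4 held the highest value of Ciita, 32.5 CPM, against 2.78 to 5.09 CPM in the other WT libraries, and its 20 macrophage and 10 lymphocyte markers were also high. Without it the list had 5 lower, and the differences were log2 -0.71 for Ciita (adjusted p = 0.0102) and -0.57 for Nlrc5 (adjusted p = 0.00639), both still called. The T cell gene Cd3e was lower (0.48 ± 0.128 CPM in HuMgat2 and 1.49 ± 1.48 CPM in WT; adjusted p = 0.0294; not called in 5 of 16 fits with 1 library left out), and 1 of 20 macrophage markers was called, Trem2, higher (log2 1.48, adjusted p = 0.0383; not called in 10 of 16 fits with 1 library left out). Their part in the antigen presentation counts was not tested. Of 28 interferon response genes 2 were higher, Rsad2 (log2 0.85 ± 0.16 SE, adjusted p = 0.00579) and Oasl1 (log2 0.59 ± 0.12 SE, adjusted p = 0.00843), and 1 was lower, Bst2 (log2 -0.38 ± 0.08 SE, adjusted p = 0.0104). Rsad2 and Oasl1 are antiviral effectors and Bst2 tethers virus particles. None of 24 inflammation and acute phase genes was called with edgeR, 6 had an unadjusted p below 0.05, and DESeq2 called 0 higher and 1 lower; with no filter on low counts edgeR called 3 lower. Their median was -0.46 (-1.44 on HFD and 0.28 on chow), 8 were lower on HFD, and without WT HFD library 4 the averaged comparison called 2 higher and 1 lower.

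The remaining lists had few calls. Glucose and insulin genes had 2 of 19 higher and 2 lower (1 or 2 higher and 2 or 3 lower with 1 library left out, and 1 each way in the model with a shared genotype effect). The IGF binding protein gene Igfbp2 (chromosome 1, 72863662 to 72891633) had 25, 72 and 125 CPM in HuMgat2 libraries, against 59, 168 and 203 CPM in WT libraries and no overlap within either diet (log2 -1.36 ± 0.18 SE, adjusted p = 0.000222; log2 -2.23 on HFD and -0.50 on chow; interaction adjusted p = 0.00977). Others were the gluconeogenic enzyme Fbp1 (log2 0.62, adjusted p = 0.00226) and the insulin receptor substrate Irs2 (-0.55, adjusted p = 0.00707). Of 21 stress response genes 1 was higher, the stress-induced hormone Gdf15 (chromosome 8, 71082043 to 71085106; 15.8 ± 10.5 CPM in HuMgat2 and 5.83 ± 3.41 CPM in WT; log2 1.52 ± 0.28 SE, adjusted p = 0.00387). That count was 2 without HuMgat2 HFD library 12, 3 without HuMgat2 chow library 14 and 3 with DESeq2. Of 19 clock genes 2 rose and 0 fell; 1 was higher in 12 of the 16 fits with 1 library left out and 0 in the model with a shared genotype effect. The smaller p was that of Npas2 (log2 3.56 on HFD and -0.29 on chow), a partner of BMAL1. The bile duct keratin Krt19 was higher (0.997 ± 0.765 CPM in HuMgat2 and 0.302 ± 0.166 CPM in WT; adjusted p = 0.0225), the 1 called of 6 cholangiocyte markers. Of 6 erythroid markers 3 were higher and 0 lower, with counts of 0 to 4 when 1 library was left out and 0 in the model with a shared genotype effect; Hba-a1, a hemoglobin alpha chain, averaged 1.74 ± 1.33 CPM in HuMgat2 and 0.626 ± 0.308 CPM in WT (adjusted p = 0.0328; not called in 6 of 16 such fits). None of 13 endothelial markers was called with edgeR, 3 had an unadjusted p below 0.05, and DESeq2 called 3 higher.

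An averaged call does not mean a like difference on both diets. Of the 1413 called genes 309 were also called in the interaction, and among these the median absolute log2 difference was 1.18 on HFD and 0.12 on chow. The 5 below, with the smallest interaction p besides Cyp2c38, show its forms. Slc22a27, an organic anion transporter (chromosome 19, 7841753 to 7943392), averaged on HFD 19.9 ± 1.61 CPM in HuMgat2 and 0.944 ± 0.33 CPM in WT, and on chow 1.29 ± 0.082 CPM in HuMgat2 and 1.84 ± 0.499 CPM in WT (SD, n = 4 each; interaction adjusted p = 4.79e-07). Adam11 (chromosome 11, 102652265 to 102671088), of the ADAM family, had log2 -3.42 on HFD and -0.18 on chow. Gpcpd1 (chromosome 2, 132371002 to 132420168), a glycerophosphocholine phosphodiesterase, had log2 -2.48 on HFD and 0.49 on chow. Slc43a1 (chromosome 2, 84669194 to 84693938), an amino acid transporter, had -2.53 on HFD and 1.05 on chow, opposite in sign (not called on average in 5 of 16 fits with 1 library left out). The matrix protein gene Spon2 (chromosome 5, 33355528 to 33375799) had 2.34 on HFD and -0.48 on chow. Of these genes only Slc22a27 and Spon2 were higher in HuMgat2 on average, and in none did the genotypes lie apart in the same direction on chow.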

How the data were processed

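RNA of mouse liver was sequenced in 16 libraries, each listed as 4 records. Per the file headers and the submitters' processing notes, the authors aligned reads with STAR 2.7 and counted them per gene with featureCounts 2.0.1 on the Ensembl annotation 103 (GRCm39), and the command shows no option for strand, multi-mapping or overlapping reads. Reads of a gene and of a gene antisense to it therefore cannot be told apart. The deposited values are whole-number counts, 12422647 to 25812129 per library, and intervals cover counting error only.

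Of 53008 gene names (78 merge several identifiers) 33954 had a count and 17318 passed edgeR's filterByExpr. The edgeR 4.0.16 quasi-likelihood test (R 4.3.3, TMM scaling, 4 groups) gave the averaged, within-diet and interaction contrasts, with Benjamini-Hochberg adjustment at 0.05. Alternatives were an additive model, DESeq2 1.42.0, its size factors, no filter, a filter at 1 CPM on average, removal of mitochondrial, ribosomal RNA and hemoglobin genes, limma 3.58.1 voom with quality weights, and each library left out. The code was tested on simulated data. Named genes are the Mogat and Dgat genes, the 12 largest differences in each direction among called genes without overlap on both diets and with a mean of at least 1 CPM in a genotype, up to 4 per list by adjusted p, up to 12 called within 10 Mb of Mogat2, the 6 smallest interaction p among called genes, and Nnt and the sex chromosome genes as checks; genes of the 2 lists added after values were seen are named by the same rule. The comparison, genes and lists were chosen with earlier results of these data known.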

Additional observations from a re-analysis of the deposited data

Results flagged for a closer look

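A library stood apart from the other 3 of its group, by Dixon's test at the 95% level, in 38 of 428 groups of 4 examined over the genes named in the text and the library totals (8.88%). Chance alone flags about 1 in 20. Where the rest of a group was at 0 CPM, any count at all was flagged. That was so for mt-Tg, Gm10599 and Gm17081 in HuMgat2 groups and for Cyp2b13 in WT HFD. WT HFD library 4 accounted for 10 of the 38, more than any other library. WT HFD library 4 was above its group for Cd3e at 5.08 CPM, Ciita at 32.5 CPM, Fabp5 at 43.9 CPM, H2-Q7 at 149.5 CPM, Mcm5 at 3.73 CPM, Nlrc5 at 70.7 CPM and Slc43a1 at 15.3 CPM and was below its group for Hadh at 160.4 CPM, Hmgcs1 at 41.4 CPM and Plin2 at 136 CPM. HuMgat2 chow library 14 was above its group for Abcg5 at 111 CPM, Acly at 435 CPM and Fbp1 at 558 CPM and was below its group for Slco1a1 at 299 CPM. HuMgat2 HFD library 12 was above its group for H2-Q6 at 20.3 CPM, Mcm5 at 7.04 CPM and Wdfy1 at 47.3 CPM. HuMgat2 chow library 15 was above its group for Gm4316 at 18 CPM, Nlrc5 at 28.1 CPM and mt-Tg at 0.107 CPM. WT chow library 7 was above its group for Fbp1 at 408 CPM and was below its group for Rps25 at 39 CPM and Spon2 at 4.04 CPM. WT chow library 8 was above its group for Bst2 at 42 CPM and the mitochondrial share at 10.5% of counts and was below its group for H2-Q7 at 58.4 CPM. HuMgat2 HFD library 9 was below its group for Acta2 at 2.48 CPM and Gm42427 at 3.83 CPM. HuMgat2 HFD library 11 was above its group for Gdf15 at 13.3 CPM and Gm10599 at 0.0425 CPM. HuMgat2 chow library 13 was above its group for Cd36 at 51.3 CPM and Gm17081 at 0.0646 CPM. WT HFD library 3 was above its group for Cyp2b13 at 0.081 CPM and Gpcpd1 at 294 CPM. HuMgat2 HFD library 10 was above its group for mt-Tg at 0.0443 CPM. HuMgat2 chow library 16 was above its group for C6 at 268 CPM. WT chow library 5 was above its group for Acta2 at 1.65 CPM. WT chow library 6 was above its group for Cyp2c70 at 213 CPM.

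The genotype difference itself differed between the diets for 36 of the genes named, by edgeR's interaction test at an adjusted p below 0.05. Values are the log2 HuMgat2 over WT difference on HFD minus that on chow. It was larger on HFD in Cyp2b9 (10.16), Hao2 (6.29), Slc22a27 (4.90), Npas2 (3.85), Idi1 (3.15), Hmgcs1 (2.87), Spon2 (2.82), Cyp2c38 (2.63), Pdk4 (2.56) and Nsdhl (2.31). It was also larger on HFD in Cdkn1a (2.07), Cd36 (1.95), Gclc (1.86), Eda2r (1.64), Hsd17b7 (1.40), Srxn1 (1.19), Hadh (0.74), Zmat3 (0.70) and Nfe2l2 (0.61). The fitted values of Cyp2b9 and Hao2 rest on WT HFD libraries at or near 0 counts and depend on the prior count. The difference on HFD lay below that on chow in Hsd3b5 (-8.18), Slco1a1 (-4.09), Slc43a1 (-3.58), Adam11 (-3.24), Gpcpd1 (-2.97), Cyp2c70 (-2.88), Cyp1a2 (-2.54), Abcg5 (-2.49), C6 (-2.42), Gvin-ps4 (-2.37), Gvin-ps2 (-2.30), Igfbp2 (-1.72), Gm46620 (-1.32), Irs2 (-1.24), Scarb1 (-0.91), Bst2 (-0.88) and Cyp27a1 (-0.79).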

How the results depend on the processing

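No paired analysis was possible because the library numbers are unique to each group. The size of the counts depended on the fit. The additive model, with 1 genotype effect for both diets, called 310 higher, 342 lower and 7 within 10 Mb of Mogat2. DESeq2 called 1099 higher in the averaged comparison and 232 on chow. Limma voom with quality weights called 1239 higher, 1204 lower, 1391 in the interaction, 2149 of one sign on both diets, 4323 on HFD and 135 on chow; its weight was lowest for WT HFD library 4 (0.231, against 0.635 to 2.09 in the others). With 1 library left out, the higher genes ranged over 416 to 884, the lower over 378 to 833, the interaction over 529 to 1129, those of one sign on both diets over 717 to 1441, the genes within 10 Mb of Mogat2 over 9 to 20, those called on HFD over 1585 to 2711, those called on chow over 53 to 204 and those without overlap on both diets over 161 to 330. The Mogat2 difference ranged over -0.31 to -0.18 (exact permutation p 0.0192 to 0.137) and missed 0.05 without 10 of the 16. Genes that were not called changed sign: Dgat1 (main value -0.01) was at 0.0056 with DESeq2, 0.0038 with no filter and 0.0011 without mitochondrial, ribosomal RNA and hemoglobin genes, and, with 1 library left out, Dgat1 ranged over -0.0635 to 0.0468, Ddx3y over -0.00439 to 0.0622 and Kdm5d over -0.0661 to 0.0667. The cause of these shifts was not tested. Other scalings and filters moved none of the counts over all genes of the averaged comparison by over 1.5 times. Lists did move: a filter at a mean of 1 CPM left 2 fatty acid oxidation genes higher, against 6, and no filter gave 7 antigen presentation and 3 inflammation genes lower, against 4 and 0. Depth limits genes at a few counts per library, Mogat2 first among them.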

Other observations

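Several targets of the tumour suppressor p53 were higher in HuMgat2 in the averaged comparison. This list of 26 genes was written after the values of Cdkn1a had been seen, so its counts are a description with no test. Of 25 tested members 13 were higher and 0 lower (11 to 14 with 1 library left out, 11 in the model with a shared genotype effect), against 4.12% and 4.04% of all genes, with a median log2 difference of 0.51 (0.61 on HFD and 0.22 on chow). All 13 had the same sign on both diets, as did 87.1% of all called genes. Taken by diet, 16 members were higher on HFD and 1 on chow, and 3 of the 13 were called in the interaction. Eda2r, a death receptor of the TNF receptor family (chromosome X, 96377446 to 96420822), had 0.949, 3.1 and 6.77 CPM in HuMgat2 libraries, against 0.283, 0.872 and 1.22 CPM in WT libraries (log2 1.78 ± 0.19 SE, adjusted p = 3.42e-05). The cyclin gene Ccng1 (chromosome 11, 40639379 to 40646138) averaged 54.1 ± 16.6 CPM in HuMgat2 and 33.5 ± 6.04 CPM in WT (SD, n = 8 each; log2 0.65 ± 0.08 SE, adjusted p = 0.000142), and the RNA binding protein gene Zmat3 averaged 19.9 ± 6.09 CPM in HuMgat2 and 13.4 ± 1.08 CPM in WT (log2 0.51 ± 0.07 SE, adjusted p = 0.000189).

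Several genes of cytosolic ribosomal proteins were lower, by small amounts. Of 79 tested 24 were lower and 0 higher, against 4.04% and 4.12% of all genes. The median log2 difference of the 79 was -0.27 (-0.36 on HFD and -0.18 on chow). Taken by diet, 29 were lower on HFD and 0 on chow. The 24 called in the averaged comparison all had the same sign on both diets, as did 87.1% of all called genes. This list too was chosen after values had been seen. Without HuMgat2 HFD library 11 there were 14, and 15 each without WT chow library 5 and without HuMgat2 HFD library 12. Leaving out WT HFD library 4 gave 20. Rpl12 (chromosome 2, 32851571 to 32855357) had 34, 48.3 and 52.7 CPM in HuMgat2 libraries, against 57.8, 68.6 and 74.5 CPM in WT libraries (log2 -0.57 ± 0.08 SE, adjusted p = 0.000585), and Rps25 (chromosome 9, 44318436 to 44321724) averaged 35.2 ± 3.46 CPM in HuMgat2 and 48.2 ± 4.67 CPM in WT (SD, n = 8 each; log2 -0.45 ± 0.07 SE, adjusted p = 0.00123). Many processed pseudogenes share sequence with these genes, and the part of shared reads was not tested.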
